A study of Mus musculus with 63 samples.

Results

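The Notch receptors Notch1 and Notch2, the DNA-binding factor Rbpj and the Notch target genes Hes1, Hey1, Dtx1 and Nrarp were followed in single common helper innate lymphoid progenitors (CHILPs), precursors in bone marrow from which helper innate lymphoid cells develop. These 7 genes were chosen by their symbols, and each had 1 row among the 23420 rows of the expression table. Single cells of strain C57BL/6 came from 2 sources. Wild-type CHILPs (WT, 29 libraries) were sorted as positive for CD45.2, CD127 and α4β7, negative for lineage markers, CD135 and CD25, and Sca1mid/-. The iR9 cells (34 libraries, also called R9-iCHILPs) met the same gate, additionally carried GFP, descended from pluripotent stem cells according to the series title, and were taken from marrow of Rag2-/-Il2rg-/- recipients 4 weeks after transplantation. The tissue and age of the WT donors, and the number of animals behind either group, are not given in the sources used here. Each group is therefore 1 sample of many cells, no test between groups was made, and every difference below is a description with its spread over cells.

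Notch receptors are cell surface proteins that are cut when a ligand of the Delta or Jagged family on a neighbouring cell binds them. ADAM proteases and then the gamma-secretase complex release the intracellular part of the receptor, which enters the nucleus, joins Rbpj and Mastermind-like coactivators and switches on targets of the Hes and Hey families. In early lymphoid cells the pathway is known for starting the T cell programme, in which Tcf7 and Gata3 are induced, and it also promotes the development of helper innate lymphoid cells, group 2 cells in particular. Dtx1 and Nrarp are feedback genes that are commonly read as signs of active Notch signalling.

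Values are TPM, transcript abundance per length with every library brought to an equal total, so the depth of a library is unknown and a value of 0 means only that the gene is listed at 0. Gapdh, a gene that every cell uses, was itself listed at 0 in 5 of the 48 cells, whereas Actb was at 0 in none, so a 0 in 1 cell does not show that a gene was off there. For 15 iR9 cell numbers, libraries with title suffixes 2 and 3 both existed. Each such pair correlated at a Pearson r across genes of at least 0.974. Between an iR9 library of suffix 2 and one of suffix 3 with different numbers, r was at most 0.411. The libraries of a pair were therefore averaged and treated as 1 cell. This left 19 iR9 cells, 3 of them of suffix 1, the suffix of every WT library.

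The paired libraries show how well a value of these genes repeats between the libraries of an iR9 cell. WT cells had no such pairs, and a loss shared by both libraries of a pair would not be seen. Among 68 genes of the Notch pathway, listed further below, 77 combinations of gene and cell reached TPM of at least 10 in either library of a pair, and 76 of them did so in both. The larger value was a median of 1.04 times the smaller and at most 1.74 times. Of the 296 combinations above 0 in either library, 164 were at 0 in the other, and none of these exceeded 4.48 TPM. A gene was called detected in a cell at 10 TPM or more, and values under 5 TPM are given as numbers without weight. For WT cells this threshold was carried over from iR9 cells and not checked.

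**Figure D1:**
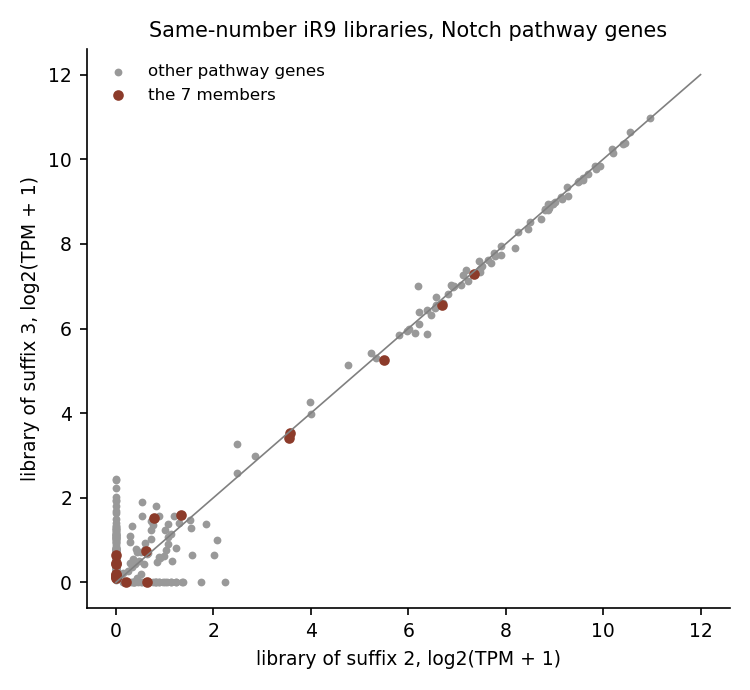
TPM of Notch pathway genes in the 15 iR9 cell numbers with paired libraries, as log2(TPM + 1) in the library of suffix 2 (horizontal) and suffix 3 (vertical). Each point is 1 gene in 1 cell, the line marks equal values, and combinations above 10 TPM lie along it while low values scatter on the axes.

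Genes per cell at 1 TPM or more had a median of 2938 in WT cells (range 1189 to 5939) and of 1732 in iR9 cells (1514 to 3238). Its part in the differences was not tested, and values within the range shared by both groups are given below. Of 9 ILC progenitor markers, 3 or more were detected in 27 WT and 17 iR9 cells. Part of that list encodes CD127 and α4β7, on which both groups were sorted, so the count is partly set by the gate. Summed over the list, the median was 9097 TPM in WT and 12051.5 TPM in iR9 cells. Of the markers outside the gate, Id2 was detected in every cell of both groups, whereas Zbtb16 was at 0 in the iR9 cells. Tcf7 was detected in 22 of 29 WT and 5 of 19 iR9 cells, and Gata3 in 24 and 8. The iR9 cell 12-1 held 9 of 10 mast cell and basophil markers and 4 of 9 myeloid markers at this level. Summed over 9 dendritic cell markers, WT cells held 3.81 to 157064 TPM (median 513) and iR9 cells 2.81 to 13105 TPM (median 828). The median was thus higher in iR9 cells, whereas 3 or more of these markers were detected in 21 WT cells but 1 iR9 cell. Siglech was at 0 in iR9 and Itgax in WT cells. Of 6 erythroid markers 4 had a row, and their sum had a median of 683 TPM in iR9 and 0.928 TPM in WT cells. The part of these transcripts was not tested either. Without the 5 WT and 2 iR9 cells in which 3 or more myeloid or mast cell markers were detected, the Hes1 difference described next was -4.86.

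Hes1 was the member with the largest difference between the sources. Hes1, a transcriptional repressor and the best known Notch target in lymphoid cells (GRCm38 chromosome 16, 30064384 to 30067796, plus strand), ranged in WT cells from 0 to 3149 TPM, with a median of 136 TPM. In iR9 cells the lowest and the median values were 0 and the highest was 184 TPM. The groups overlapped through the 12 WT cells at or near 0 and through 1 iR9 cell.

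The WT values of Hes1 fell into separate ranges. In 17 cells it lay between 27.8 and 3149 TPM, in 4 cells between 0.462 and 1.17 TPM, and in 8 cells it was listed at 0, with nothing in between. The highest cells were 10-1 at 3149, 4-1 at 1044, 3-1 at 806 and 31-1 at 780 TPM. Cells 10-1 and 4-1 also held markers of other lineages, with 3 myeloid markers and 1 mast cell marker detected in 10-1 and 1 and 3 in 4-1. Among iR9 cells, 17 were at 0, cell 32 held 0.284 TPM as the mean of its paired libraries, and cell 12-1 held 184 TPM. That cell is the one with mast cell markers, and it held Tcf7 at 1.22 TPM. Without it, Hes1 was detected in no iR9 cell.

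Hes1 was detected in 17 of 29 WT cells (58.6%, exact Clopper-Pearson 95% interval 38.9 to 76.5%). In iR9 cells this was so for 1 of 19 (5.26%, 0.133 to 26.03%), and such intervals reflect counting error alone. The counts hardly moved with the threshold, with 18 and 1 cells from 1 TPM and 16 and 1 cells from 100 TPM. Mean log2(TPM + 1) was 5.06 ± 4.28 (SD, n = 29 cells) for WT and 0.42 ± 1.72 (SD, n = 19 cells) for iR9, a difference, iR9 minus WT, of -4.65. Differences on this scale understate the change of low genes. Over the 7421 genes that reached 1 TPM in 10% of cells or more, called tested genes below, the median difference was -0.88, 44.5% of genes were lower by at least 1 in iR9 cells and 5.15% were higher by at least 1, so a lower mean alone is common. Only 0.337% of these genes had a difference as low as that of Hes1. Of the 1047 genes detected in as many WT cells as Hes1 or more, 2.48% were detected in at most 1 iR9 cell. Hes1 lay at the lower edge of that set, which also held genes detected in more WT cells. The 2.48% is therefore not the share among genes of like detection in WT cells.

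The Hes1 difference was also calculated in more alike cells. In the range of 1514 to 3238 genes shared by both groups, Hes1 was detected in 43.75% of the 16 WT cells, against 5.26% of the 19 iR9 cells, with a difference of -3.48. Of the iR9 cells of suffix 1, cells 14-1 and 17-1 held Hes1 at 0, and with cell 12-1 the difference was -2.55. Title suffix and source can hardly be told apart, since no WT cell had suffix 2 or 3.

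**Figure D2:**
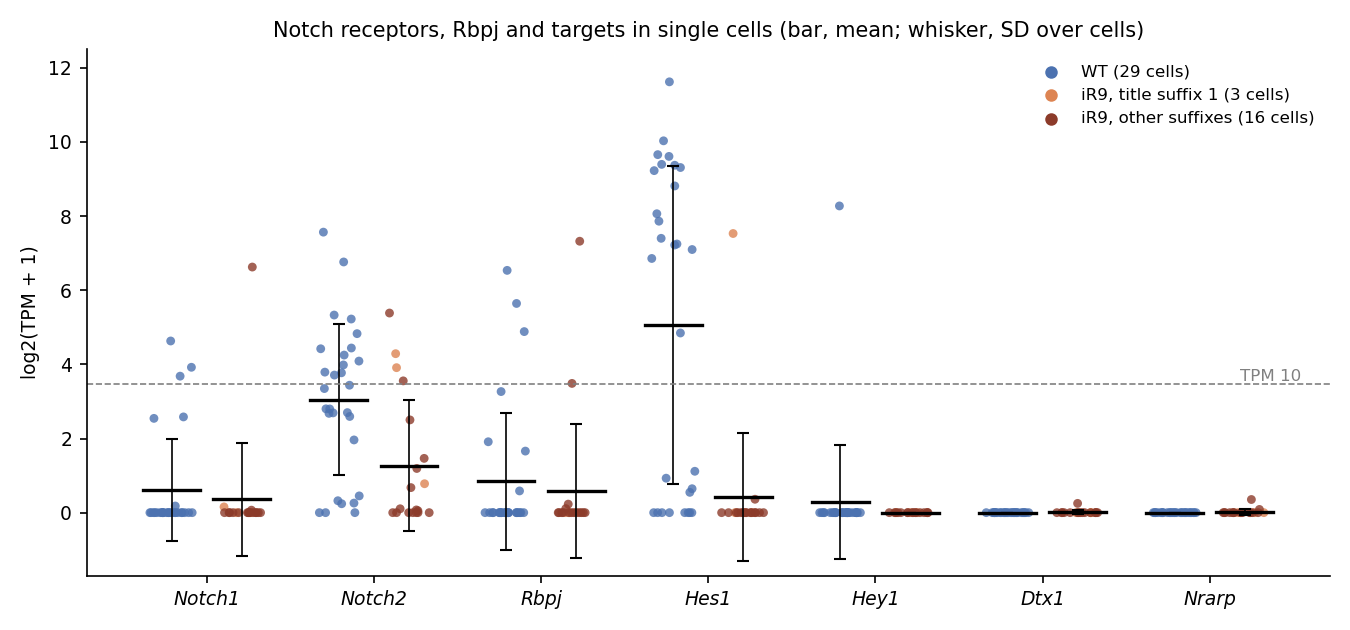
The 7 members in every cell, as log2(TPM + 1), in WT cells and in iR9 cells of title suffix 1 and of the other suffixes. Bars mark means, whiskers the SD over cells and the dashed line TPM of 10, and Hes1 lies above it in 17 WT cells and 1 iR9 cell while Dtx1 and Nrarp stay at the base in all cells.

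The other target genes of the set were listed at or near 0 in almost all cells of both sources. Hey1, a repressor related to Hes1 that is best known from blood vessels and heart (chromosome 3, 8663359 to 8667256, minus strand), was at 308 TPM in WT cell 10-1 and at 0 in the other 28 WT cells and all 19 iR9 cells. Cell 10-1 also held the highest Hes1 and Tcf7 values of all cells and the highest Rbpj value of the WT cells, at 91.8 TPM. Dtx1, an E3 ubiquitin ligase of the Deltex family (chromosome 5, 120680202 to 120711927, minus strand), was at 0 in all WT cells and reached at most 0.189 TPM in an iR9 cell. Nrarp, an ankyrin repeat protein that limits Notch signalling (chromosome 2, 25180758 to 25183339, plus strand), was at 0 in all WT cells and reached at most 0.278 TPM in an iR9 cell. For both, detection in 0 of 29 WT cells allows a share of up to 10.3%, and 0 of 19 iR9 cells one of up to 15.8%, taken as 3 cells of the total and covering counting error only. The 17 WT cells with Hes1 were thus listed at 0 for Dtx1 and Nrarp, which at an unknown depth does not show that these genes were off.

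Notch2 was the receptor seen in most cells. Notch2 (chromosome 3, 98013527 to 98150361, plus strand) ranged from 0 to 189 TPM in WT cells, with a median of 9.18 TPM, and from 0 to 40.8 TPM in iR9 cells, with a median of 0.075 TPM. The ranges overlapped widely. Detection was in 13 of 29 WT cells (44.8%, 26.4 to 64.3%) against 4 of 19 iR9 cells (21.1%, 6.05 to 45.6%), and the intervals overlap. From 1 TPM the counts were 22 and 7. Mean log2(TPM + 1) was 3.05 ± 2.03 (SD, n = 29 cells) for WT and 1.26 ± 1.76 (SD, n = 19 cells) for iR9, a difference of -1.79, with 18.6% of tested genes at or below it. Against the 3 iR9 libraries of suffix 1 the difference was -0.057, and cells 12-1 and 14-1 among them held 18.5 and 14.04 TPM. The other iR9 cells in which it was detected were 25, at 40.8 TPM, and 30, at 10.8 TPM. Quantile normalization brings the cells toward the same distribution of values, except that values of 0 stay tied. It took the median of all genes to -0.08, and the Notch2 difference was then -0.25, against -4.14 for Hes1. Low values can be raised by it, as for Nrarp, whose difference went from 0.023 to 0.188 with at most 0.278 TPM in any cell. Differences after quantile normalization, here and below, can therefore rest partly on values given no weight.

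Notch1 was found in few cells of either source. Notch1, the receptor that drives T cell commitment (chromosome 2, 26457903 to 26516663, minus strand), had a median of 0 in both groups and a highest value of 23.8 TPM in WT and 97.7 TPM in iR9 cells. It was detected in 3 WT cells, 7-1, 16-1 and 19-1, at 23.8, 14.1 and 11.8 TPM. The single iR9 cell was number 15, whose paired libraries held 102 and 93.3 TPM. The shares were 10.3% (2.19 to 27.4%) and 5.26% (0.133 to 26.03%), with a difference of -0.24 between the means of log2(TPM + 1). The log2 ratio of mean TPM had the other sign, at 1.01, and without iR9 cell 15 the difference of means was -0.59, so no direction is given for Notch1. Notch1 and Notch2 were detected together in no cell of either group.

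Of the 3 WT cells in which Notch1 was detected, 16-1 also belonged to a set of 4 with much Dntt and little Id2. WT cells 5-1, 6-1, 16-1 and 29-1 held Dntt, the template-independent DNA polymerase of early lymphocytes, at 1121 to 2137 TPM and Id2 at 15.6 to 216 TPM. Notch1 in these cells was at 4.83, 0, 14.1 and 4.99 TPM, of which only the value of 16-1 counts as detected. Hes1 differed among the same 4 cells, at 0.904, 168, 0 and 634 TPM. Without them the Notch1 difference was 0.021, against -0.24 with all cells. The Hes1 difference was then -4.75 and the Notch2 difference -1.94.

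The remaining receptor genes were at or near 0. Notch3 was at 0 in all cells. Notch4 was detected in 1 iR9 cell, number 24, with 36.8 and 41.8 TPM in its paired libraries.

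Rbpj was found in few cells of either group. Rbpj (chromosome 5, 53466152 to 53657362, plus strand) had a median of 0 in both groups and a highest value of 91.8 TPM in WT cell 10-1 and 159 TPM in iR9 cell 12 with paired libraries, which is not cell 12-1. It was detected in WT cells 10-1, 25-1 and 23-1, at 91.8, 49.0 and 28.5 TPM, and in iR9 cells 12 and 32, at 159 and 10.2 TPM. The shares were 10.3% (2.19 to 27.4%) in WT and 10.53% (1.301 to 33.1%) in iR9 cells. The difference between the means was -0.26 and the log2 ratio of mean TPM was 0.44, so no direction is given for Rbpj either. All 3 WT cells with Rbpj at that level also held Hes1 at 449 to 3149 TPM, whereas the iR9 cells with Rbpj held Hes1 at 0 and 0.284 TPM. With 3 and 2 cells, this is a count only.

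Promoter sequence was looked at because Rbpj binds DNA at a known core, TGGGAA (reverse complement TTCCCA), often preceded by G as GTGGGAA. The 250 bases before each start site in the RefSeq promoter table (GRCm38.p6) were searched on both strands. Of 32851 windows, 21.6% held TGGGAA and 5.42% held GTGGGAA, which is part of the former count. The 68 pathway genes had 71 windows for 54 genes, and 16 windows (22.5%), of 15 genes, held TGGGAA, a share near that of all windows. Of the members, Notch1, Notch2, Rbpj, Dtx1 and Nrarp matched the table, and Hes1 and Hey1 did not. The windows of Notch1, Notch2, Dtx1 and Nrarp held no match, nor did those of Tcf7, Gata3 and Hes6. Rbpj is shown as the only member with a match, and Hes5, Hes7, Hey2 and Ptcra as the target genes with one. Each is in the gene's direction with the core in capitals and its position counted from the start site. For Rbpj the first start site is the first listed in that promoter table, and it lies inside the gene bounds given above.

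Rbpj, chr5:53590185-53590214, plus strand, -149 to -144 of the first start site: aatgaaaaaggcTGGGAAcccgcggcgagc
Rbpj, chr5:53590269-53590298, plus strand, -65 to -60 of the first start site: gacgctcgcattTTCCCAggacccctcctc
Hes5, chr4:154960829-154960858, plus strand, -82 to -77: ggccgccgagtgTGGGAAcggccgcggcgc
Hes5, chr4:154960685-154960714, plus strand, -226 to -221: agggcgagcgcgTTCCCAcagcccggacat
Hes7, chr11:69120261-69120290, plus strand, -180 to -175: tcctcccctcacTTCCCAcatttggggcta
Hey2, chr10:30842973-30843002, minus strand, -207 to -202: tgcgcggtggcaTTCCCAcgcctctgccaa
Ptcra, chr17:46763779-46763808, minus strand, -84 to -79: cccagaaagcacTGGGAActagggggtaga
Ptcra, chr17:46763727-46763756, minus strand, -32 to -27: gggtctgtgatcTGGGAAgcagtgtagtag

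The 4 target genes shown, Hes5, Hes7, Hey2 and Ptcra, were each listed at 0 in all 48 cells. Of the other 10 listed targets, the windows of Tcf7, Gata3, Hes6, Dtx1, Nrarp and Il2ra did not hold the core, and Hes1, Hey1, Heyl and Myc had no window. A match or its absence within 250 bases describes the letters of this window and is no measure of binding.

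Within WT cells, all but 1 of the cells with Hes1 also held Tcf7, and all but 1 also held Gata3. Tcf7 encodes TCF-1, a factor of early lymphoid commitment, and Gata3 a factor of T cells and group 2 innate lymphoid cells. Hes1 and Tcf7 were both detected in 16 WT cells, Hes1 alone in 1, Tcf7 alone in 6 and neither in 6. With Gata3 there were also 16 cells with both, Hes1 alone in 1, Gata3 alone in 8 and neither in 4. The exceptions among Hes1 cells were 28-1, with Tcf7 at 1.64 TPM, and 25-1, with Gata3 at 0.

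Tcf7 and Gata3 were detected together in 20 WT cells, and Hes1 with them in 15. Only 2 iR9 cells held both factors, 14-1 with 266 TPM of Tcf7 and 118 TPM of Gata3, and 17-1 with 111 and 37.2 TPM, and both were at 0 for Hes1. Tcf7 itself was detected in 22 WT and 5 iR9 cells and Gata3 in 24 and 8, with differences of -4.80 and -4.11. Both differences were smaller against iR9 cells of suffix 1, at -2.22 for Tcf7 and -0.85 for Gata3. For iR9 cells 14-1 and 17-1 alone they were -0.12 and -1.29. Among iR9 cells 8 held none of the 3 genes at that level, against 3 WT cells.

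Rank correlations over the 29 WT cells describe the same cells. Spearman rho of Hes1 was 0.42 with Tcf7 (Pearson r 0.56) and 0.40 with Gata3 (0.38), but -0.11 with Notch1 (-0.0002) and -0.12 with Notch2 (-0.032). Over the 3840 genes detected in 8 or more WT cells, the median rho with Hes1 was 0.13, 15.9% of genes had a rho of at least 0.3 and 1.46% one of at most -0.3. A rho as high as that of Tcf7 was seen for 5.52% of these genes and one as high as that of Gata3 for 6.46%. The points share kit and title suffix, and Hes1 also had a rho of 0.33 with the number of genes from 1 TPM in a cell. Given that number, rho was 0.34 for Tcf7 and 0.45 for Gata3. Without the 5 WT cells in which 3 or more myeloid or mast cell markers were detected, rho was 0.21 for Gata3 and 0.32 for Tcf7. Tcf7 and Gata3 had a rho of -0.12 with each other. For the 20 listed pathway genes detected in 8 or more WT cells, rho with Hes1 ran from -0.17 to 0.52, and its median of 0.13 was that of all genes.

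The receptors were found in WT cells with and without Hes1. Notch1 or Notch2 was detected in 10 of the 17 WT cells with Hes1 and 6 of the 12 others. From 1 TPM, 14 of the 17 held a receptor, among 24 of all 29 WT cells. In iR9 cells 5 of 19 held a detected receptor, and Hes1 accompanied it only in cell 12-1. WT cells 28-1, 3-1 and 25-1 held Hes1 at 672, 806 and 598 TPM with Notch2 at 0, 0.25 and 0.368 TPM and Notch1 at 0.

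**Figure D3:**
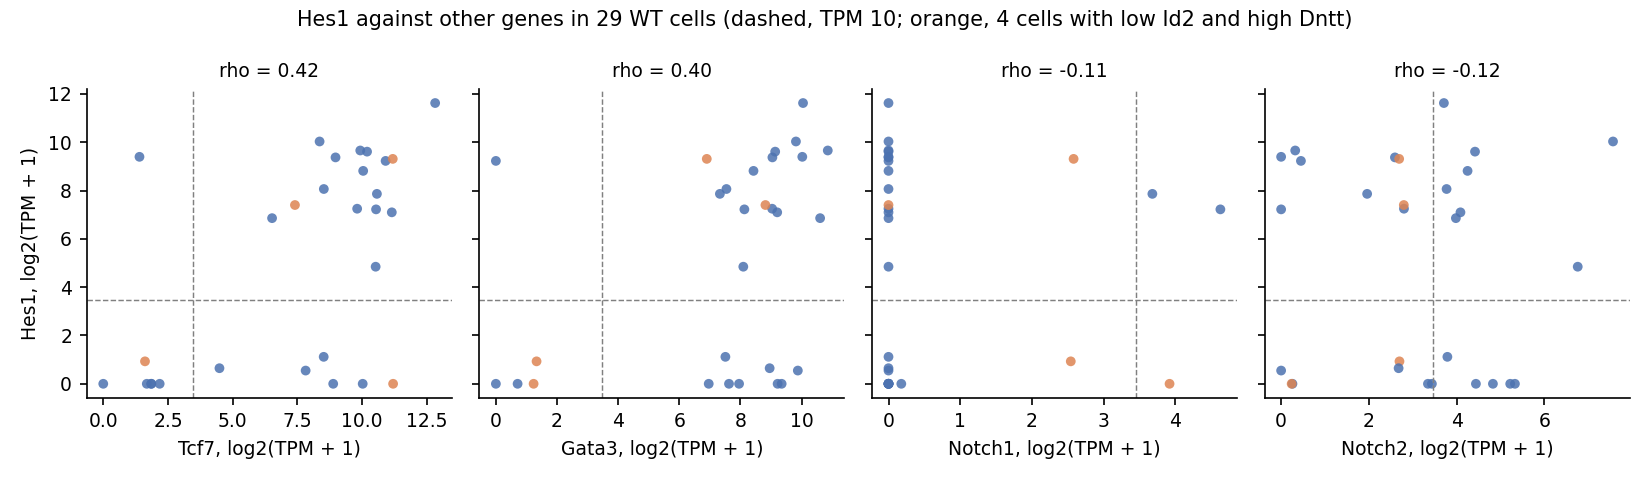
Hes1 (vertical) against Tcf7, Gata3, Notch1 and Notch2 (horizontal) in the 29 WT cells, as log2(TPM + 1), with dashed lines at TPM of 10 and Spearman rho above each panel. Orange points are the 4 cells with low Id2 and high Dntt, and the upper right corner holds 16 cells for Tcf7 and for Gata3 but 2 for Notch1 and 8 for Notch2.

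The genes with the pattern most like Hes1, by rank correlation over the 29 WT cells, were taken from 3692 named genes. The highest rho values were those of Dcun1d5 (0.71), Rbx1 (0.68), Hars (0.66), Vapa (0.64) and Hint2 (0.63), and the lowest those of Atp1b3 (-0.52), Gpx1 (-0.49) and Ndufs4 (-0.48). Dcun1d5 and Rbx1 belong to the cullin ubiquitin ligase system, Hars is a tRNA synthetase and Gpx1 a peroxidase. Hes1 was detected together with Dcun1d5 in 13 of the 16 WT cells that held Dcun1d5, and with Hars in 12 of 14. Hars was detected in no iR9 cell, whereas Rbx1 was in 14 and Vapa in 15 of 19. For Notch1 the highest values were those of Snx30 (0.67), Impdh2 (0.60) and Eif3c (0.57), and they rest on few cells, since Notch1 was detected in only 3. For Notch2 they were those of D19Ertd737e (0.56), Odc1 (0.55) and Hspa5 (0.51).

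The wider pathway was described by a list of 68 genes in 9 classes. Of these, 41 were tested genes as defined above, including 4 of the 7 members (Notch1, Notch2, Rbpj and Hes1). In iR9 cells 20 of the 41 were lower by at least 1 and 1 was higher by at least 1, with a median difference of -0.86. Over all 7421 genes 44.5% were lower by that much and the median was -0.88, so the list as a whole lay near the background. Without the members, Tcf7 and Gata3, 16 of 35 genes (45.7%) were lower by at least 1, with a median of -0.85.

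Of the 14 listed targets, Tcf7, Hes1, Gata3, Hes6 and Myc passed the filter on low values, and their differences ran from -4.80 to -2.84. A target could pass through WT cells alone, as Hes1 did with 18 WT cells and 1 iR9 cell from 1 TPM, so the direction of those that passed is a description of these genes and not of the class. After quantile normalization the differences ran from -4.14 (Hes1) to -1.14 (Myc), and within the shared range of gene numbers from -4.41 (Tcf7) to -1.49 (Myc). Hes6, a family member known to oppose Hes1, was detected in 17 WT cells and 2 iR9 cells (difference -3.41). It was found with Hes1 in 11 WT cells and had a rho of 0.11 with it. Myc, a growth regulator named here after its value was seen, was detected in 10 WT cells and no iR9 cell. The other 9 of 14 listed targets were not measured under this filter, and 8 of them stayed under 10 TPM in every cell. Among these was Il2ra, which encodes CD25, a marker on which the sort excluded cells.

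Ligand and ligand-handling genes were found in few cells. Dll1, a Delta ligand, was detected in 5 WT cells and 1 iR9 cell, with a highest value of 424 TPM. Jag2, which did not pass the filter on low values, was detected in 2 WT cells and no iR9 cell, with a highest value of 82.9 TPM. Dll3 and Dll4 were at 0 in all cells, and Jag1 stayed under 1 TPM. Neurl3, of the Neuralized ubiquitin ligases, was the single listed gene with a mean higher by at least 1 in iR9 cells (difference 1.15), detected in 4 iR9 and 3 WT cells.

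Genes that modify and cut the receptors mostly differed by less than 1. None of the 6 genes of glycosylation and maturation was lower or higher by at least 1. Of 7 measured cleavage genes, 2 (28.6%) were lower by that much and 0 higher. Over all tested genes 44.5% were lower and 5.15% higher, and both class counts rest on few genes. Furin, the protease that cuts the receptor on its way to the surface, differed by -0.86, Mfng, a Fringe sugar transferase, by -0.35, Rfng by -0.17, and Pofut1, which adds the O-fucose, by 0.065. After quantile normalization all 4 had positive differences, from 0.41 for Furin to 1.21 for Mfng, so no direction is given for them. Furin was detected in 8 WT cells, all of which also held Hes1, with a rho of 0.52, the highest among the 20 pathway genes compared with Hes1. Among the gamma-secretase subunits, Ncstn was detected in 8 WT cells and no iR9 cell (difference -1.84) and Aph1a in 5 and none (-1.07). Within the shared range of gene numbers these differences were -0.43 and -0.37, and after quantile normalization -0.74 and -0.38. Psenen was in 24 of 29 WT and 12 of 19 iR9 cells (-0.76), but had a positive difference after quantile normalization (0.72). For Ncstn, 0 of 19 cells allows a share of up to 15.8%, again as 3 cells of the total.

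Of 5 measured genes of the nuclear complex 4 were lower by at least 1 in iR9 cells, all except Rbpj itself, against 44.5% of all tested genes. Here too a gene could pass the filter through WT cells alone, as Maml3 did with 8 WT cells and no iR9 cell from 1 TPM. The count therefore describes these genes and not the class. Snw1, an adaptor shared with splicing, was detected in 16 WT and 4 iR9 cells (difference -2.23), Crebbp, an acetyltransferase, in 8 and 2 (-1.27), and the coactivator Maml3 in 6 and none (-1.31). After quantile normalization the differences were -0.38 for Snw1, -0.35 for Crebbp and -0.99 for Maml3. For Snw1 the difference was 0.11 within the shared range of gene numbers, where Maml3 stood at -1.77 and Crebbp at -1.04. Of 8 measured corepressor genes 4 (50%) were lower by at least 1, a share near that of all tested genes, namely Hdac1 (-2.77), Tle3 (-1.95), Ncor1 (-1.83) and Kdm5a (-1.51). Ncor1, a corepressor shared with nuclear receptors, was detected in 24 WT cells, including all 17 with Hes1, and in 10 iR9 cells. After quantile normalization Hdac1 differed by -1.43 and Tle3, Ncor1 and Kdm5a by -0.30 to -0.28.

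Among genes of receptor turnover, Dtx3 stood lowest. Dtx3, a Deltex family ubiquitin ligase related to Dtx1, was detected in 13 WT cells and no iR9 cell, with a difference of -3.28 that 2.40% of tested genes matched or passed. It was -1.99 after quantile normalization and -3.06 within the shared range of gene numbers. Dtx3 was found with Hes1 in 9 WT cells, with a rho of 0.15. Dtx3l was detected in 6 WT cells and no iR9 cell (-1.19). Dtx4 (-0.40) and Nedd4 (-0.64), a ubiquitin ligase with many substrates, were in 5 and 9 WT cells and in 2 and 4 iR9 cells, with positive differences after quantile normalization (0.74 and 0.72). Within the shared range of gene numbers, 15 of 37 listed genes (40.5%) were lower by at least 1, against 30.9% of all genes tested there. After quantile normalization 8 of the 41 listed genes (19.5%) were lower by at least 1, near the 15.2% of all genes, and 4 were higher.

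**Figure D4:**
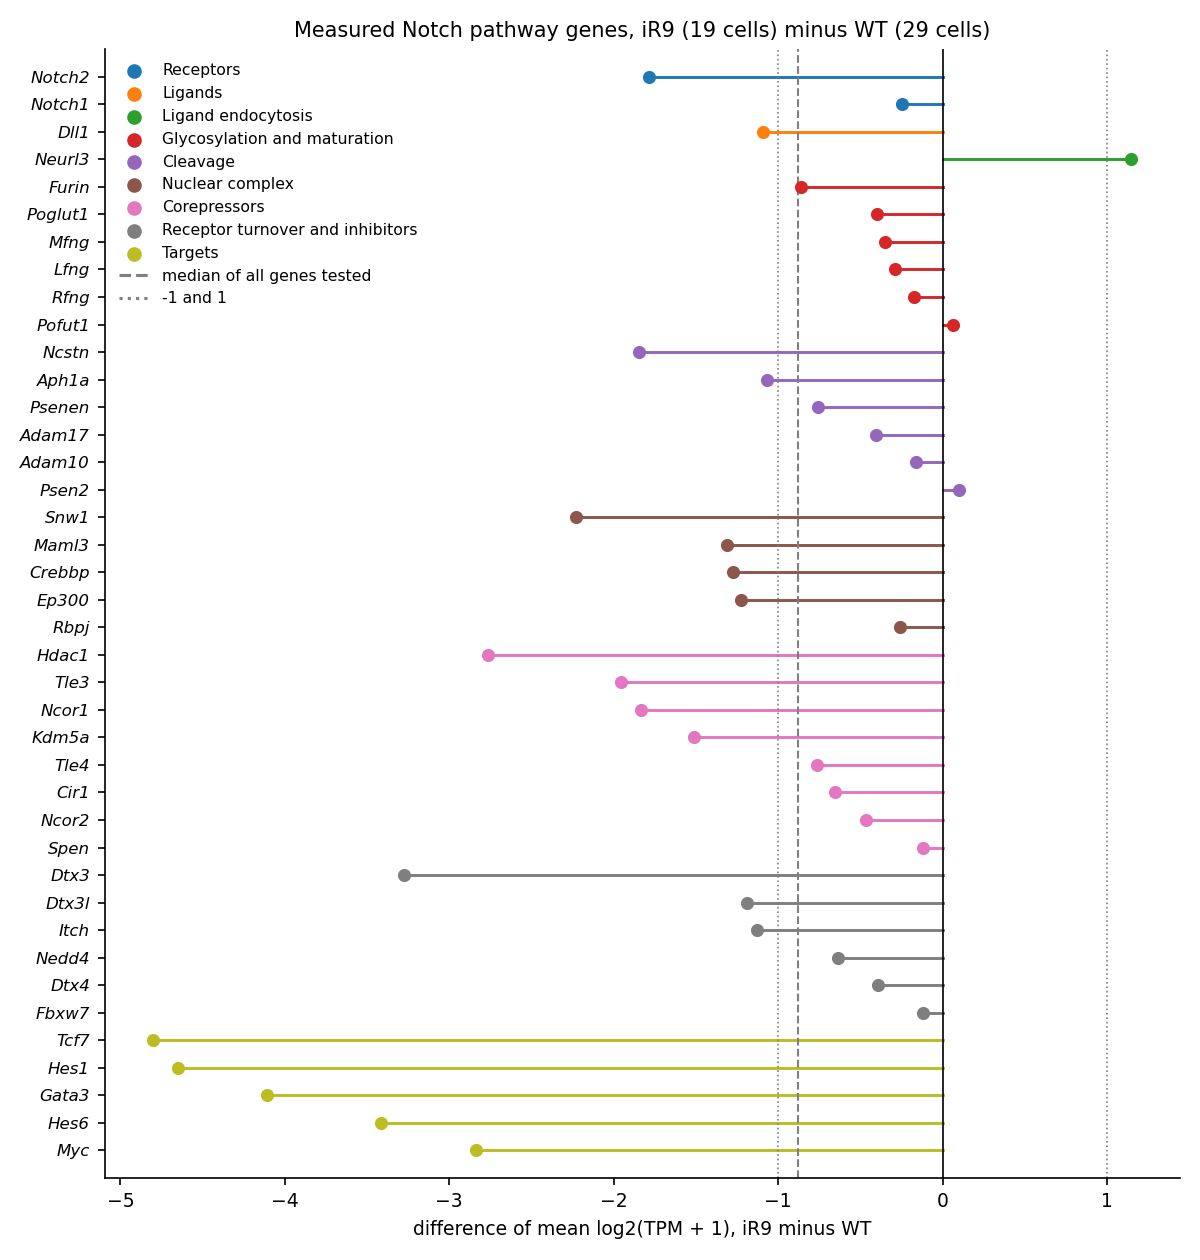
Difference of mean log2(TPM + 1), iR9 minus WT, for 40 of the 41 measured Notch pathway genes, coloured by class. The dashed line is the median of all genes tested (-0.88) and dotted lines mark -1 and 1, and Tcf7, Hes1, Gata3, Hes6 and Dtx3 lie lowest.

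**Figure D5:**
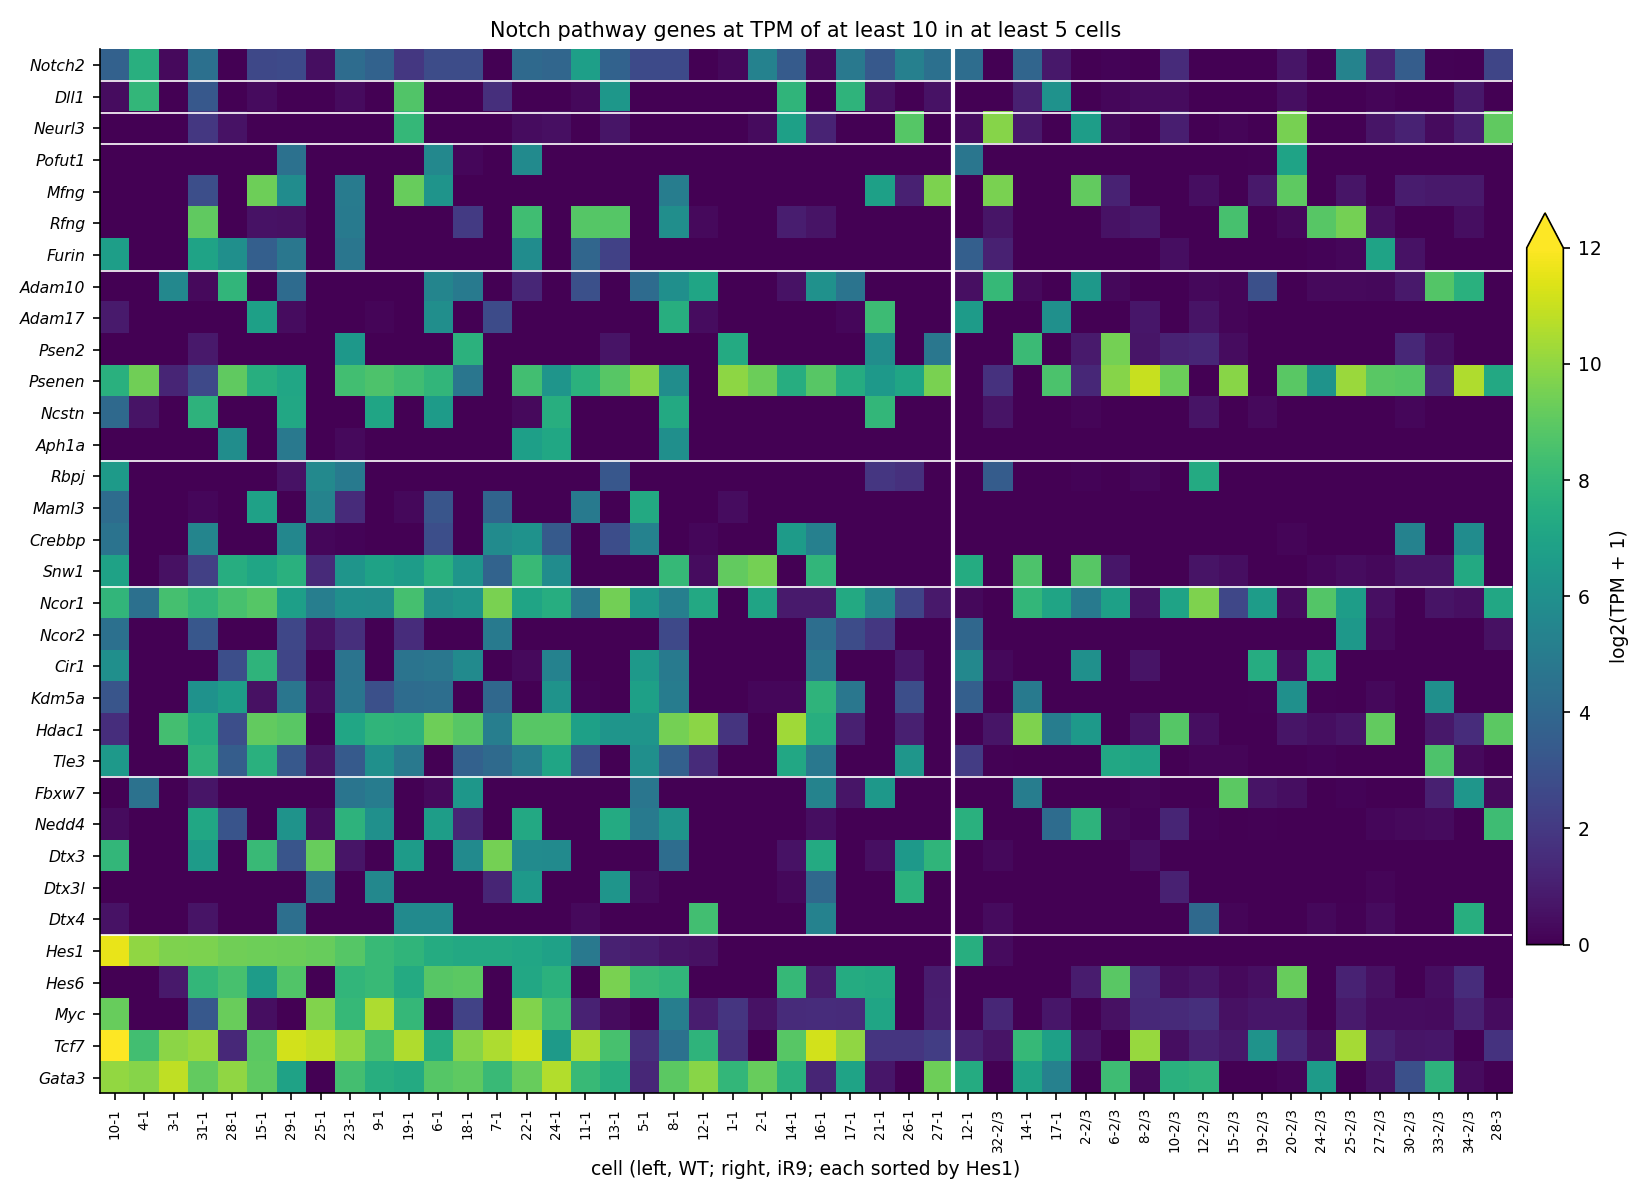
Log2(TPM + 1) of 33 of the 34 listed genes detected in 5 or more cells (rows, by class) in every cell (columns), WT left and iR9 right, each sorted by Hes1. The Hes1 row is filled in the left 17 WT columns and in the first iR9 column, cell 12-1, while Tcf7 and Gata3 are filled across most WT columns.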

How the data were processed

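Per the labels' protocols, RNA of each sorted cell was amplified with the Discover-sc WTA Kit V2 before library making with a TruePrep kit. The deposited table holds TPM made by the authors for 23420 rows and 63 libraries, and each column name matched 1 sample title. The submitters' processing notes list StringTie 1.3.4, HISAT2 2.1.0, bcl2fastq 2.16.0.10, SAMtools 0.1.19 and the build mm10, without roles. TPM keeps no depth, so no counts were used. Scripts ran on Python 3.11.15 with pandas 2.3.3, NumPy 2.4.6, SciPy 1.17.1 and matplotlib 3.10.9. Their arithmetic was checked on the values of these cells shuffled within each gene, with planted differences and planted correlations.

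In 27 rows the symbol was a date, and these were left out. Same-number libraries of suffixes 2 and 3 were averaged where each was the other's best match. Means are of log2(TPM + 1), and genes counted as tested from 1 TPM in 10% or more of the 48 cells. Gene positions were read from GENCODE M21 (GRCm38, the same assembly as mm10). The members, lists and thresholds were chosen with earlier results of these data known. Named genes were the members, Tcf7, Gata3, up to 4 genes per class detected (10 TPM or more) in 5 or more cells with the largest differences, and the genes most like Hes1, Notch1 and Notch2 by Spearman rho over WT cells, without predicted genes. Of the marker lists, 3 or more members were detected in this many WT and iR9 cells respectively: common lymphoid progenitor (3 and 0), T cell (1 and 0), B cell (0 and 0), myeloid (4 and 2), mast cell and basophil (1 and 1), stroma (0 and 0) and erythroid genes (0 and 1). No doublet caller was run and no cell was removed. Alternatives covered the counting of paired libraries, suffixes, gene numbers, marker-holding cells, thresholds, pseudocounts, scaling and filters. Values of 1 gene of the pathway list and of 1 marker gene are not reported here by name, but both were kept in the counts over their lists.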

Additional observations from a re-analysis of the deposited data

How the results depend on the processing

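No paired analysis was possible because no result here is a test between groups. Of 406 alternative values for 34 results, 355 stayed within set limits. These were 1 SD for a difference, the 95% interval of a share, 1.5 times a count or 0.2 of a rho. The SD was over cells for a gene, and over the tested pathway genes for their median difference. No result with a difference of at least 1 changed sign. This tally is no measure of stability, since shares of Dtx1, Nrarp and Hey1 at 0 can hardly move and 1 SD over cells is wide: it takes in the Gata3 difference of -0.85 with suffix 1 alone, against -4.11. The Hes1 difference (-4.65) lay between -6.64 and -2.55 over all settings and that of Notch2 (-1.79) between -2.97 and -0.057. Using iR9 libraries 14-1 and 17-1 alone, or leaving out cell 12-1, was chosen after seeing the data. Depth, which limits every low value, cannot be read from TPM, and the cause of each move was not tested.

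The values that moved more follow. As the log2 ratio of mean TPM, Hey1 differed by -3.54, through 1 WT cell. With a pseudocount of 0.1 Dtx1 and Nrarp differed by 0.081 and 0.138, and after quantile normalization by 0.066 and 0.188. For libraries 14-1 and 17-1 alone the Tcf7 difference was -0.12. Shares at TPM of at least 1 and above 0 were 75.9% and 89.7% for Notch2 in WT cells, 96.6% in both for Tcf7 in WT cells, and 52.6% and 89.5% for Tcf7 in iR9 cells. Above 0, Notch2 was in 63.2% and Gata3 in 68.4% of iR9 cells. At TPM of at least 100, Notch2 was in 6.90% of WT cells, and the share was 0% for Notch2 in iR9 cells, Rbpj in WT cells and Notch1 in both. With suffix 1 alone, the iR9 shares were 33.3% for Hes1, 66.7% for Notch2 and Tcf7, 100% for Gata3 and 0% for Notch1 and Rbpj. For 14-1 and 17-1 alone they were 50% for Notch2, 100% for Tcf7 and Gata3 and 0% for Hes1, Notch1 and Rbpj. Hes1 was at 0% of iR9 cells with suffix 2 or 3 alone, without cell 12-1 and without the cells in which 3 or more myeloid or mast cell markers were detected. Hey1 was at 0% of WT cells in the shared range of gene numbers and without the marker cells. Leaving out each cell in turn gave 0 to 5.56% for Hes1 and Notch1 in iR9 cells and 0 to 3.57% for Hey1 in WT cells. Of the pathway list, the 20 of 41 genes lower by at least 1 (48.8%, against 44.5% of all genes) became 9 of 41 with a pseudocount of 10 (21.95% against 17.96%) and 8 of 41 after quantile normalization (19.5% against 15.2%). With genes in at least 30% of cells they became 11 of only 16 (68.75% against 54.9%), a higher share. The 1 higher gene became 0 with suffix 2 alone, a pseudocount of 10, genes in at least 30% of cells or 1 cell left out (range 0 to 1), 6 with suffix 1 alone, 9 for 14-1 and 17-1, 5 for the log2 ratio of means and 4 after quantile normalization.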
